A study of Mus musculus with 12 samples.

Results

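The genes described here are 35 genes of mitosis and the G2/M transition, measured in whole embryonic mouse hearts. They were taken by symbol from a fixed list, and each of the 35 has a row among the 45664 rows of the deposited count table and passed the filter on low counts, which left 20691 genes for testing. They comprise 8 cyclins and controllers of CDK1, 6 mitotic kinases, 4 genes of the spindle checkpoint and the anaphase-promoting complex, 4 centromere and passenger genes, 8 kinesins and spindle genes, 3 cytokinesis genes and 2 chromosome genes. The 12 libraries are bulk RNA of whole hearts, and each library is called a heart below. Per the labels, 3 KO hearts of embryonic stage E14.5 had an endothelial, Tie2-based disruption of Ino80, a chromatin remodelling ATPase, and 3 hearts of that stage had the genotype WT. As many KO and WT hearts came from stage E13.5. The label that names the disruption stands on the WT samples too, and the genotype label separates the groups. Tie2 is active in endothelial cells and also in blood-forming lineages, so a whole heart holds many cells in which Ino80 was not targeted. The sources used here give neither the strain nor the deleted part of Ino80, and they do not say whether a library is 1 heart or a pool. Replicate numbers are those of the sample titles. The E13.5 hearts all came from litter 1, and the E14.5 hearts from litters 2 and 3, so stage and litter cannot be told apart.

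Libraries held 46556032 to 182545647 counts, and the lowest count of any of the 35 genes in any library was 730. Levels are given as CPM, counts scaled to library size. Ino80, the targeted gene, had 26.98 to 31.88 CPM in E14.5 KO hearts, against 30.8 to 33.9 CPM in E14.5 WT hearts. It had 29.6 CPM in each of the E13.5 KO hearts, against 30.7 to 36.6 CPM in E13.5 WT hearts. The genotypes therefore overlapped at E14.5 and not at E13.5. The summed level of 8 cardiomyocyte markers was 18410 to 24880 CPM and that of 8 endothelial markers 799 to 986 CPM over the 12 hearts.

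Entry into mitosis is driven by CDK1 bound to cyclin B, which the CDC25 phosphatases switch on. Polo-like and Aurora kinases, kinesins and passenger proteins then build the spindle and attach chromosomes to it, and the anaphase-promoting complex with CDC20 destroys cyclin B and ends mitosis. Most of these genes are transcribed late in the cell cycle under FOXM1, B-MYB and the MuvB complex, while the DREAM complex holds them down in resting cells. Cardiomyocytes of the embryonic heart still divide and withdraw from the cell cycle after birth. In bulk RNA, fewer dividing cells and less of these transcripts per cell cannot be told apart.

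MuvB complexes bind a promoter element called CHR, and many late cell cycle promoters also hold CCAAT boxes, which NF-Y binds. The letters TTTGAA (CHR) and CCAAT were searched on both strands in RefSeq promoter windows of GRCm38.p6, from 250 bases before to 50 bases after each start. Windows were matched for 29 of the 35 genes. CHR letters were in 22 of them (75.9%), against 20.2% of 27025 genes with a window. CCAAT letters were in 24 (82.8%), against 41.1%, and both were in 19 (65.5%), against 7.97%. The E2F letters TTTCGCGC, TTTGGCGC or TTTCCCGC were in 1 of the 29 (3.45%), against 2.12%, and that gene was Cdk1. These matches describe letters in a window and are not evidence of binding. The 150 bases before the start are shown for a pair of genes that passed the stage test below, Plk1 and Ccnf, and for Cdk1, Ccnb1 and Cdc20, which run the entry into and exit from mitosis. Capitals mark TTTGAA and CCAAT or their reverse complements TTCAAA and ATTGG.
Plk1 (chr7:122159285-122159434, plus strand): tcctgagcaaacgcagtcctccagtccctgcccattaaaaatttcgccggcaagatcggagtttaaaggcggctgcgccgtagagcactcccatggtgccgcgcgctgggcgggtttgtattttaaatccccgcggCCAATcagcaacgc
Ccnf (chr17:24251410-24251559, minus strand): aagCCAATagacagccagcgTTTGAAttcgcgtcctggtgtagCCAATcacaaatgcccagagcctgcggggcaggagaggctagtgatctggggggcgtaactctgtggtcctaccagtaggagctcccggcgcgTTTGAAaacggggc
Cdk1 (chr10:69352913-69353062, minus strand): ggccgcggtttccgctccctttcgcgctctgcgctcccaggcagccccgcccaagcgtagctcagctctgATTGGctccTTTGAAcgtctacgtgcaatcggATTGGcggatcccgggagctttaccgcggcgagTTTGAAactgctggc
Ccnb1 (chr13:100786487-100786636, minus strand): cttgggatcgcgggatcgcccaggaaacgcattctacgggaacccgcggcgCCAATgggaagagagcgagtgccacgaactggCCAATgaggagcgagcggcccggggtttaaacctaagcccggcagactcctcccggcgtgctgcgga
Cdc20 (chr4:118437344-118437493, minus strand): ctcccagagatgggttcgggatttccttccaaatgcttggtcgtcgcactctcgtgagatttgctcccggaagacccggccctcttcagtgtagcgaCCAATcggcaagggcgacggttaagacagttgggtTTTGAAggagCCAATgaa
In Cdk1, Ccnf and Cdc20 a CHR and a CCAAT match lie in the shown stretch, with the nearest CHR 15, 14 and 18 bases before the start. Plk1 has its CHR letters 31 bases after the start, outside the shown stretch, and Ccnb1 has a pair of CCAAT matches and no CHR letters in its window.

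The level of each gene was compared per kilobase of exon, using GENCODE M21 gene models. Over the 12 hearts the highest were Ccna2, cyclin A2, at 49.6 CPM per kb, Ccnb2, a cyclin B, at 49.4, Ube2c, the ubiquitin-conjugating enzyme of the anaphase-promoting complex, at 47.8, Top2a, topoisomerase II, at 40.5, and Cdc20 at 40.0. The lowest were Cdc25c, a CDK1-activating phosphatase, at 3.29 CPM per kb and Ccnf, a cyclin that serves as a subunit of a ubiquitin ligase, at 4.90. The range was 15.1-fold, and 23 of the 35 genes were in the top 25% of 19463 genes ranked by this measure. Ccnb1, Ccnb2 and Kif4 have pseudogenes of their name in that annotation, so their counts are less certain. Some of the genes also share exon bases with a gene on the other strand, and the strand setting of the counting is not given. Among them are Ccna2 (510 bases), Ube2c (592), Cdc20 (53), Kif4 (832) and Prc1 (911). Together the 35 genes took 0.300% to 0.375% of the counts of a library.

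The effect of the endothelial Ino80 disruption was asked first at each stage. At E14.5, 0 of the 35 genes passed edgeR's quasi-likelihood test at an adjusted p of 0.05, against 0.222% of all genes tested (46 genes). At E13.5, 0 of the 35 passed, against 0.106% (22 genes). At an unadjusted p under 0.05 the count was also 0 at both stages, against 1985 of the 20691 genes at E14.5 and 2137 at E13.5. DESeq2 likewise called 0 of the 35 at either stage. The log2 fold changes of KO over WT lay between -0.07 and 0.18 at E14.5, with a median of 0.06 over the 35 genes against -0.01 over all genes. They lay between -0.10 and 0.13 at E13.5, with a median of 0.01 against 0.00. The 95% intervals, not adjusted for the number of genes, all contained 0, and their outermost bounds were log2 changes of -0.27 and 0.46 at E14.5 and of -0.31 and 0.38 at E13.5. In folds, the highest bound was 1.37 at E14.5 and 1.30 at E13.5, both for Bub1.

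**Figure D1:**
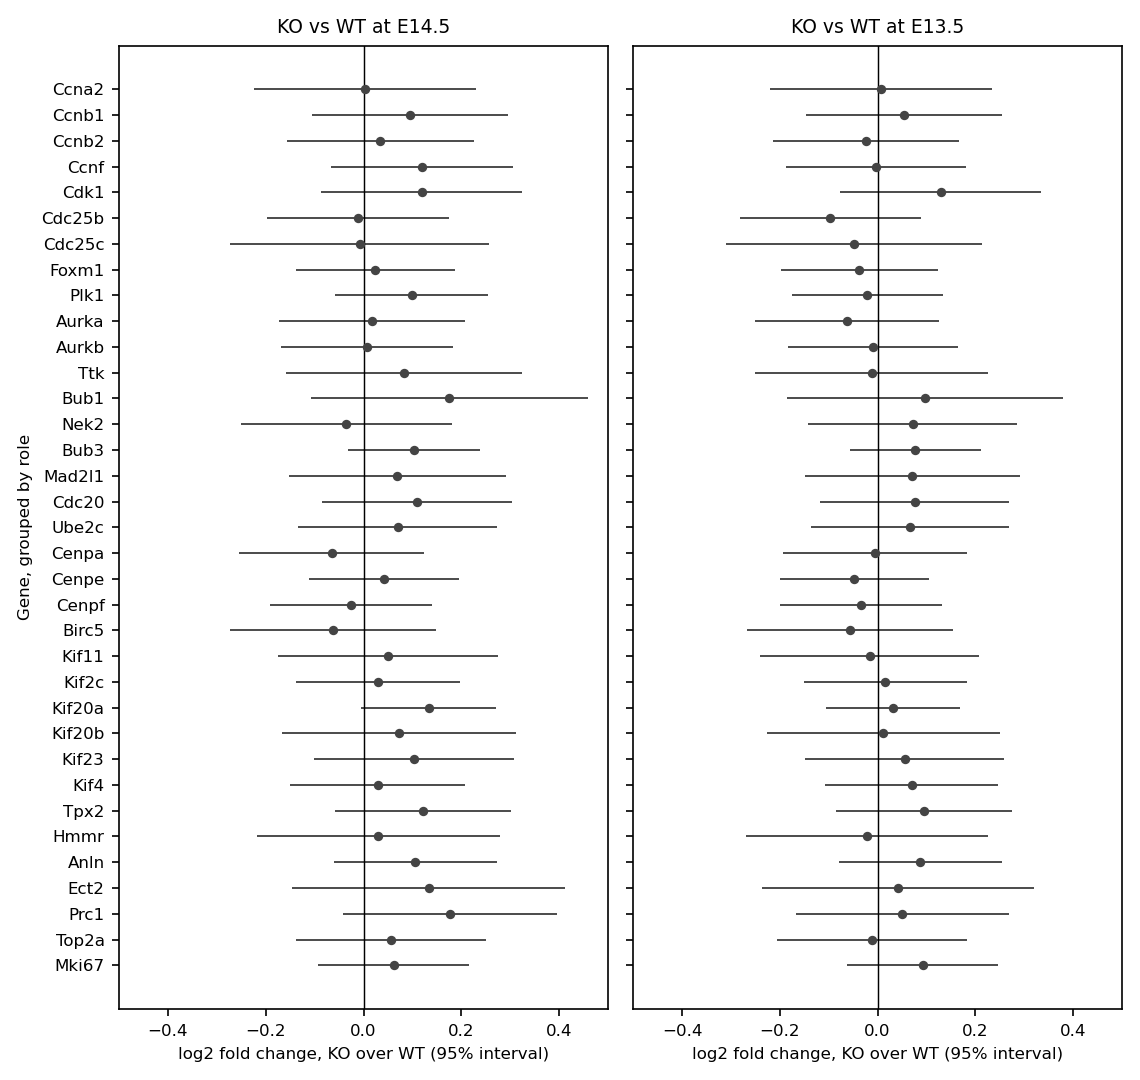
Log2 fold change of KO over WT for each of the 35 genes (rows, grouped by role) at E14.5 on the left and E13.5 on the right; points are edgeR estimates and lines unadjusted 95% intervals, with 3 hearts per group. Every interval crosses 0, and no estimate is farther from 0 than 0.18.

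Among the cyclins and CDK1 controllers, Cdk1, the kinase that starts mitosis, had 159.6, 124.8 and 117.7 CPM in E14.5 KO hearts (replicates 2, 4 and 1), against 127, 116 and 127 CPM in E14.5 WT hearts (replicates 8, 7 and 7.2). It had 148, 136 and 145 CPM in E13.5 KO hearts (replicates 3, 5 and 7), against 125.1, 133.7 and 133.2 CPM in E13.5 WT hearts (replicates 1, 4 and 2). All E13.5 KO hearts were above all E13.5 WT hearts, while at E14.5 the groups overlapped and KO replicate 2 stood highest. The log2 change was 0.12 ± 0.10 (SE) at E14.5 (edgeR adjusted p = 0.794) and 0.13 ± 0.10 at E13.5 (0.657), the highest of the 35 genes at that stage. Ccnb1, the cyclin B partner of CDK1, had 130, 118 and 103 CPM in E14.5 KO hearts, against 113, 99.6 and 115 CPM in E14.5 WT hearts. At E13.5 it had 135, 120 and 133 CPM in KO hearts, against 114, 124 and 135 CPM in WT hearts. Its groups overlapped at both stages, with log2 changes of 0.09 ± 0.09 at E14.5 and 0.05 ± 0.09 at E13.5 (edgeR adjusted p = 0.855 and 0.881).

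Foxm1, the transcription factor of this gene set, had 72.7, 64.1 and 64.1 CPM in E14.5 KO hearts, against 67.4, 66.5 and 63.5 CPM in E14.5 WT hearts. Its E13.5 levels were 76.8, 64.8 and 74.0 CPM in KO hearts, against 74.1, 77.2 and 70.1 CPM in WT hearts. The groups overlapped at both stages, and the log2 changes were 0.02 ± 0.08 and -0.04 ± 0.07. Cdc25b, a phosphatase that activates CDK1, had the lowest log2 change at E13.5, -0.10 ± 0.09 (edgeR adjusted p = 0.721), and -0.01 ± 0.09 at E14.5 (0.996). Ccna2, Ccnb2, Ccnf and Cdc25c lay between -0.05 and 0.12 at the 2 stages.

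Among the kinases, Aurkb, the kinase of the chromosomal passenger complex, had 42.2, 36.7 and 36.2 CPM in E14.5 KO hearts, against 37.9, 36.6 and 40.1 CPM in E14.5 WT hearts. Its E13.5 levels were 39.3, 36.8 and 43.8 CPM in KO hearts, against 41.4, 40.8 and 38.5 CPM in WT hearts. The groups overlapped, and the log2 changes were 0.01 ± 0.08 at E14.5 and -0.01 ± 0.08 at E13.5. Bub1, a checkpoint kinase at the kinetochore, had log2 changes of 0.18 ± 0.13 at E14.5 (edgeR adjusted p = 0.770) and 0.10 ± 0.13 at E13.5 (0.835), among the 2 highest at both stages and with the widest errors. Its CPM at E14.5 was 99.0, 83.2 and 64.9 in KO hearts, against 73.4, 64.3 and 81.0 in WT hearts, so the KO hearts held both of the highest values and the second lowest. Aurka, the centrosome kinase, was at -0.06 ± 0.09 at E13.5 (0.843).

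Of the checkpoint, centromere and passenger genes, Cdc20, the activator of the anaphase-promoting complex, had 76.7, 69.4 and 72.3 CPM in E14.5 KO hearts, against 68.7, 62.2 and 71.5 CPM in E14.5 WT hearts. At E13.5 it had 84.5, 77.6 and 82.4 CPM in KO hearts, against 73.6, 69.0 and 89.6 CPM in WT hearts. WT replicate 2 was the highest heart of all for this gene, and both comparisons overlapped (log2 0.11 ± 0.09 at E14.5, edgeR adjusted p = 0.805, and 0.08 ± 0.09 at E13.5, 0.802). Birc5 (survivin), a passenger protein, had 73.1, 62.5 and 55.1 CPM in E14.5 KO hearts, against 72.5, 59.3 and 67.3 CPM in E14.5 WT hearts. At E13.5 it had 70.1, 63.9 and 70.0 CPM in KO hearts, against 66.7, 72.5 and 72.9 CPM in WT hearts. It was below 0 at both stages (-0.06 ± 0.10 each, edgeR adjusted p = 0.930 and 0.882), as were Cdc25b, Cdc25c, Cenpa and Cenpf. Cenpa, the centromeric histone H3 variant, had the lowest log2 change at E14.5, -0.07 ± 0.09 (0.909).

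Among the cytokinesis and chromosome genes, Prc1, which bundles the midzone microtubules, had the highest log2 change at E14.5, 0.18 ± 0.10 (edgeR adjusted p = 0.654). Its CPM was 184, 149 and 141 in KO hearts, against 139.7, 125.3 and 153.8 in WT hearts, and WT replicate 7.2 lay above KO replicates 4 and 1. Top2a, which untangles sister chromatids, had 407, 352 and 319 CPM in E14.5 KO hearts, against 365, 335 and 337 CPM in E14.5 WT hearts. Its E13.5 levels were 402, 351 and 374 CPM in KO hearts, against 397, 390 and 349 CPM in WT hearts. The groups overlapped at both stages. Mki67, the coat protein of mitotic chromosomes used as a proliferation marker, had 262, 242 and 270 CPM in E14.5 KO hearts, against 259, 239 and 244 CPM in E14.5 WT hearts. At E13.5 it had 300, 257 and 270 CPM in KO hearts, against 269, 254 and 254 CPM in WT hearts. It too overlapped at both stages, with log2 changes of 0.06 ± 0.07 and 0.09 ± 0.07.

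**Figure D2:**
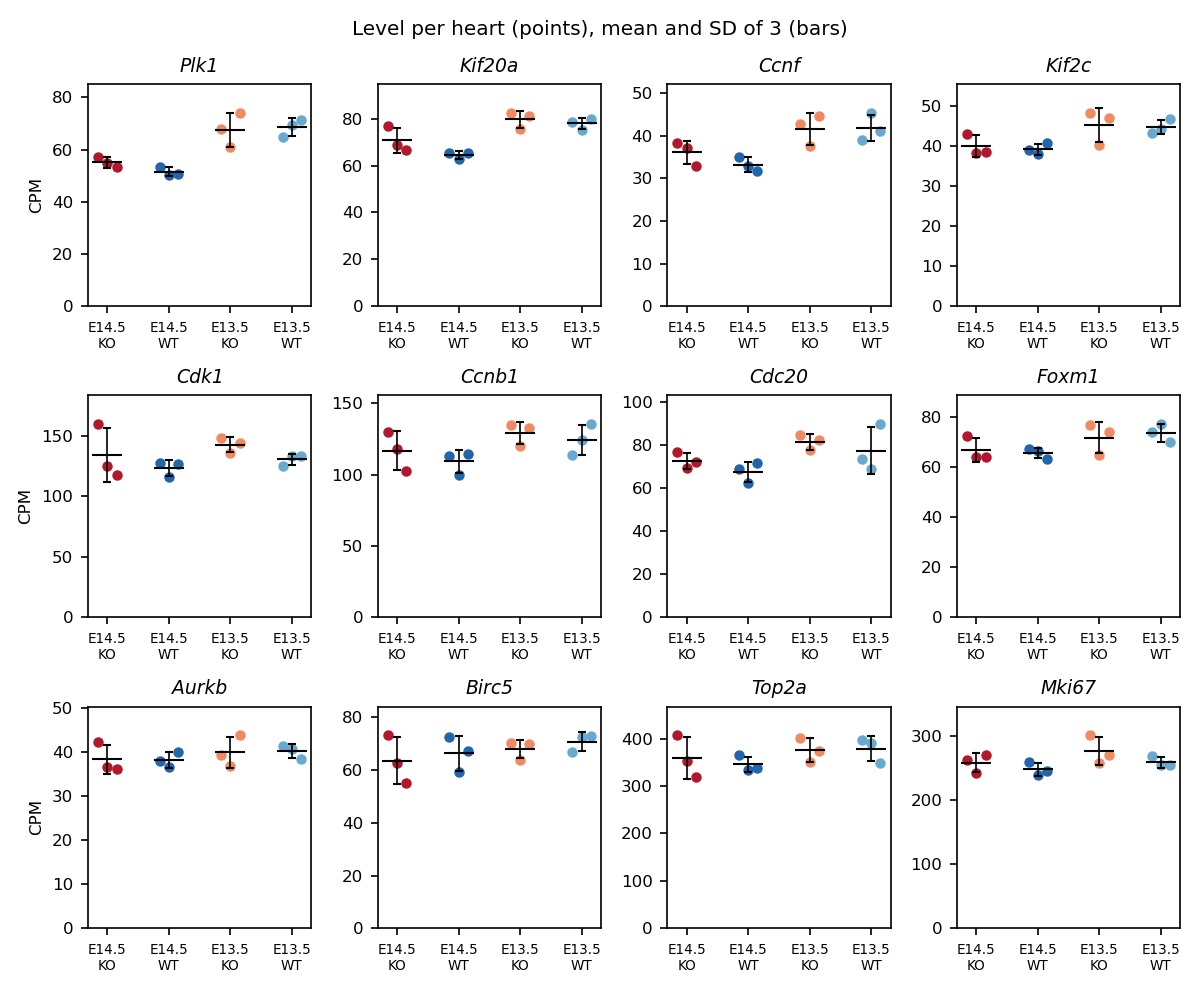
CPM, counts scaled to library size (vertical axes, from 0), of 12 of the genes in each heart (points), with the mean and SD of 3 hearts per group; groups run E14.5 KO, E14.5 WT, E13.5 KO, E13.5 WT. Plk1 at E14.5 lies between 50.3 and 57.2 CPM in all 6 hearts and at E13.5 between 61.0 and 73.8 CPM, while for Cdk1, Birc5 and Top2a the widest spread is among E14.5 KO hearts.

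Counted by separation of the groups, 2 of the 35 genes (5.71%) had all KO hearts above all WT hearts at E14.5, Bub3 and Kif20a, against 6.81% of all genes. At E13.5 they were Cdk1 and Anln (5.71%), against 8.44%, and for Anln the nearest KO and WT hearts both rounded to 146.7 CPM. In the other direction there were 0 at E14.5, against 5.87% of all genes, and 0 at E13.5, against 11.2%. The shares with KO higher are near or below the background and are no result about these genes. In sign, 29 of the 35 log2 changes were above 0 at E14.5, against 48.1% of all genes, and 19 at E13.5, against 50.4%. These signs are not independent of each other, because single hearts shifted many of the genes together, as described below.

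With the stages averaged, 6 KO against 6 WT hearts, 0 of the 35 genes passed the test, against 1.42% of all genes (293 genes). The log2 changes lay between -0.06 and 0.14 with a median of 0.04. The highest were Bub1 (0.14 ± 0.09, edgeR adjusted p = 0.524) and Cdk1 (0.12 ± 0.07, 0.416), and the lowest Birc5 (-0.06 ± 0.07, 0.733) and Cdc25b (-0.05 ± 0.06, 0.726). The difference between the KO effects of the stages (E14.5 less E13.5) passed for 0 of the 35 genes and for 0% of all genes, of which 746 had an unadjusted p under 0.05. DESeq2 called 2 genes in that comparison, and neither was one of the 35. For the 35 genes, these differences of effects lay between -0.11 and 0.13.

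In several single hearts most of these genes lay on the same side of their group's mean. This did not hold for every heart, and E13.5 WT replicate 2 had 19 genes above and 16 below. In E14.5 KO replicate 2, 34 of the 35 genes were above the mean of their own group, and it was the highest of the 3 for 33, the exceptions being Cdc25b and Mki67. In E13.5 KO replicate 5, 0 of the 35 were above their group's mean, and it was the lowest for 33, the exceptions being Cenpa and Ect2. E14.5 KO replicate 1 was the lowest of its group for 26 genes and E14.5 WT replicate 7 for 30. Over all genes tested, 48.4% to 55.0% were above the mean of their own group in each of the 12 hearts. The mean log2 CPM of the 35 genes was 6.45, 6.22 and 6.15 in E14.5 KO hearts (replicates 2, 4 and 1), against 6.26, 6.13 and 6.27 in E14.5 WT hearts (replicates 8, 7 and 7.2). It was 6.41, 6.25 and 6.39 in E13.5 KO hearts (replicates 3, 5 and 7), against 6.30, 6.36 and 6.34 in E13.5 WT hearts (replicates 1, 4 and 2). The E14.5 KO hearts held both the highest and the second lowest of the 12 values. Within groups, the SD of a gene's log2 CPM had a median of 0.12 over the 35 genes, between 0.07 (Bub3) and 0.19, against 0.10 over the 8913 genes in the same range of levels.

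**Figure D3:**
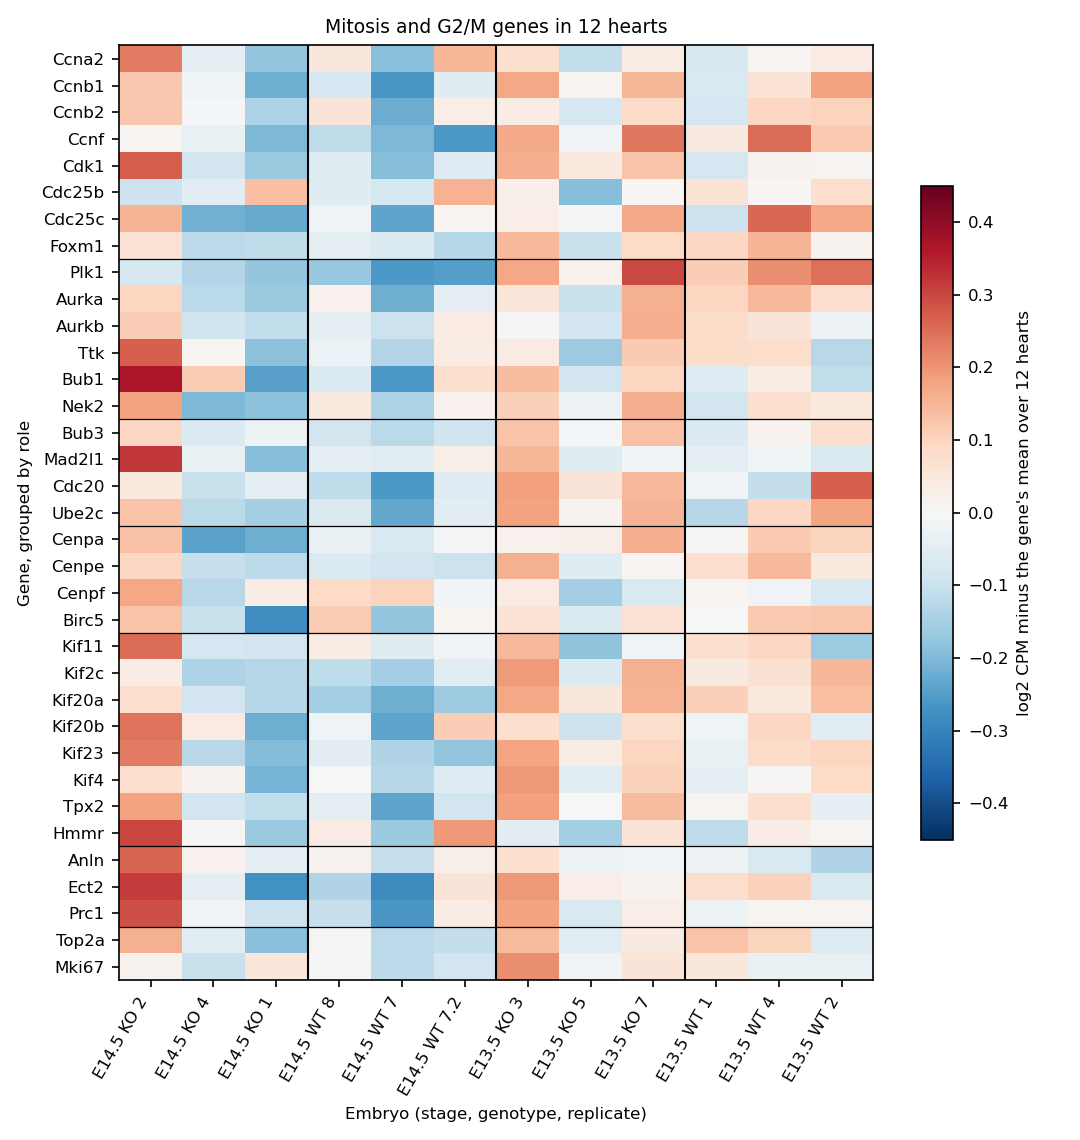
Log2 CPM of each of the 35 genes (rows, grouped by role) in each heart (columns), minus the gene's mean over the 12 hearts; red is above and blue below that mean. The column of E14.5 KO replicate 2 is red for nearly all genes except Plk1 and Cdc25b, and the column of E14.5 WT replicate 7 is blue for all but Cenpf.

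**Figure D4:**
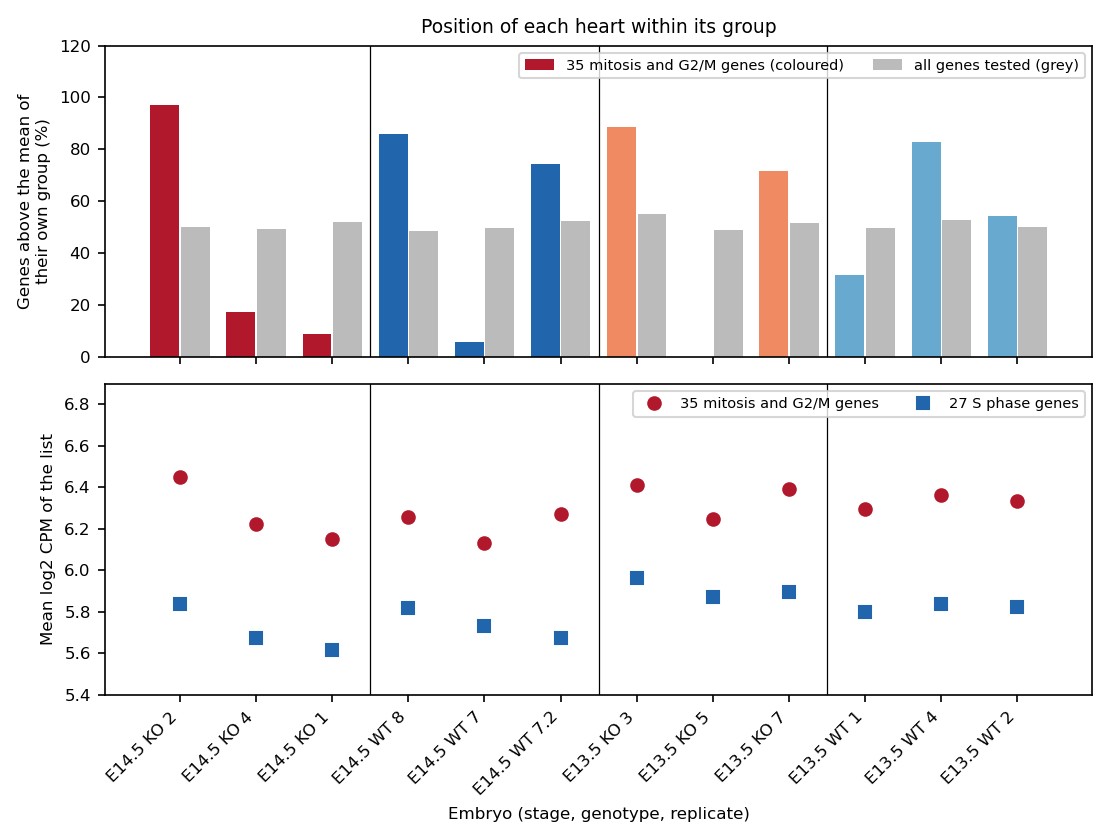
Upper panel, the percentage of genes above the mean of their own group in each heart, for the 35 genes (coloured bars) and for all genes tested (grey bars); lower panel, the mean log2 CPM of the 35 genes (circles) and of 27 S phase genes (squares), on an axis that starts at 5.4. The coloured bars run from 0 of 35 genes in E13.5 KO replicate 5 to 34 of 35 in E14.5 KO replicate 2, while the grey bars stay between 48.4% and 55.0%.

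Other lists of dividing cells shared this order of hearts in part. The mean log2 CPM of 27 S phase genes was 5.84, 5.67 and 5.62 in E14.5 KO replicates 2, 4 and 1, against 5.82, 5.73 and 5.68 in E14.5 WT replicates 8, 7 and 7.2. That of 29 kinetochore genes was 4.96, 4.75 and 4.58 in the KO hearts, against 4.80, 4.67 and 4.81 in the WT hearts. In KO both lists had the order of the mitotic genes, while in WT replicate 7.2, the highest heart for the mitotic genes, was the lowest for S phase. Cell type markers differed among these hearts as well. The summed level of 10 macrophage and leukocyte markers was 16.6 CPM in E14.5 KO replicate 2 and 10.4 CPM in E13.5 KO replicate 5, against 27.95 to 93.71 CPM in the other 10 hearts. Of these 2 hearts, E14.5 KO replicate 2 had the highest mean of the mitotic genes in its group and E13.5 KO replicate 5 the lowest in its own. The summed erythroid markers were 41770 CPM in E14.5 KO replicate 1 and 3566 to 18370 CPM in the other 11 hearts. Their part in the shifts was not tested.

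The direction of the KO medians changed with the hearts left out. Without E14.5 KO replicate 2, 12 of the 35 log2 changes at E14.5 were above 0 and the median was -0.03. No other single heart turned the E14.5 median. Without E14.5 KO replicate 1 it was 0.12, with 32 above 0 and a smallest edgeR adjusted p of 0.214. With litter 3 left out it was 0.135, with 33 above 0 and a smallest edgeR adjusted p of 0.178. In that fit the smallest adjusted p with the stages averaged was 0.0935. At E13.5 the median was -0.02 without KO replicate 3, with 15 above 0, and -0.01 without KO replicate 7, with 16 above 0. Without E13.5 KO replicate 5 it kept its sign, with 31 above 0 and a median of 0.07. In none of these fits did any of the 35 genes pass the test. The litters of E14.5 differed too. In litter 2, KO replicates 2 and 4 against WT replicates 8 and 7, the mean of 2 KO hearts was above that of 2 WT hearts for 32 of 35 genes, with a median difference of 0.14 in log2 CPM. In litter 3, KO replicate 1 against WT replicate 7.2, KO was below WT for 27 of 35, with a median of -0.11 and no replicate. With erythroid expression as a covariate, 0 of the 35 genes passed at either stage, and the median was 0.03 at E14.5 and -0.02 at E13.5, where it was below 0. With Y-linked expression as a covariate 0 passed as well, and the median was 0.06 at E14.5 and -3.4e-05 at E13.5, with 17 above 0. The mean log2 CPM of Y-linked genes was -4.76 in E13.5 KO replicate 5, against 5.5 and 5.4 in replicates 3 and 7.

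The cell types that the sample could hold gave these values beside the KO comparisons. Of 8 endothelial markers, Pecam1, an adhesion molecule of endothelial junctions, fell at E13.5 by 0.62 ± 0.08 on the log2 scale (edgeR adjusted p = 0.00809), and with the stages averaged Pecam1 and Cldn5 fell. At E13.5, 6 of the 8 were below 0 with a median of -0.10. The list did not keep that direction at the later stage. At E14.5, 6 of the 8 were above 0 with a median of 0.19. There 6 had an unadjusted p under 0.05, against 1985 of 20691 genes, and 0 passed. With the stages averaged 5 of the 8 were above 0 with a median of 0.05. The summed endothelial markers were 910 to 986 CPM in E14.5 KO hearts, against 799 to 948 CPM in E14.5 WT hearts. They were 829 to 850 CPM in E13.5 KO hearts, against 881 to 955 CPM in E13.5 WT hearts. All 10 macrophage markers were below 0 at E13.5, with summed levels of 10.4 to 52.3 CPM in KO hearts, against 84.4 to 89.5 CPM in WT hearts. None of these 10 passed the test, and 5 had an unadjusted p under 0.05, against 2137 of 20691 genes. Whether these cell types contribute to the levels of the 35 genes was not tested.

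Genes that restrain the cell cycle and S phase genes were set beside these results from fixed lists. The former are called G2/M brakes here, though not all of them are specific to G2. Of 15 G2/M brakes, 1 passed with the stages averaged, and it rose, against 0.831% of all genes that rose. Cdkn1a, the p53-induced inhibitor of cyclin-dependent kinases, had 67.5, 33.8 and 44.9 CPM in E14.5 KO hearts, against 29.1, 26.7 and 28.5 CPM in E14.5 WT hearts. It had 36.8, 41.3 and 40.7 CPM in E13.5 KO hearts, against 19.9, 23.4 and 22.5 CPM in E13.5 WT hearts. All KO hearts were above all WT hearts of their stage, with a log2 change of 0.82 ± 0.13 (edgeR adjusted p = 0.0134), and E14.5 KO replicate 2 was highest for Cdkn1a as it was for the mitotic genes. With litter 3 left out the adjusted p was 0.0509. Of 27 S phase genes, 0 passed at either stage. At E14.5, 10 of them were above 0 with a median of -0.04, against 48.1% of all genes. At E13.5 it was 26 with a median of 0.07, against 50.4% of all genes. These signs need not be independent of each other. Over the 35 mitotic genes the medians were 0.06 and 0.01. None of the 27 passed the test of the difference between the stages.

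The second question was how these genes differed between the stages, which the labels tie to different litters. Plk1, the polo-like kinase of mitotic entry and spindle assembly (GRCm38 chromosome 7, 122159439 to 122169873, plus strand), fell in both genotypes, and in KO the call was lost with litter as a block. In KO hearts it had 57.2, 54.8 and 53.3 CPM at E14.5, against 67.8, 61.0 and 73.8 CPM at E13.5. In WT hearts it had 53.5, 50.3 and 50.6 CPM at E14.5, against 64.9, 69.5 and 71.4 CPM at E13.5. In neither genotype did the stages overlap. The log2 change was -0.29 ± 0.07 in KO (edgeR adjusted p = 0.0418) and -0.41 ± 0.07 in WT (0.0198) (-18.5% in KO and -24.96% in WT). The difference between these changes was 0.12 ± 0.10 and did not pass (0.997).

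In WT hearts, 3 of the 35 genes (8.57%) fell, Plk1, Kif20a and Ccnf, against 1.96% of all genes. In KO hearts 1 of the 35 (2.86%) fell, Plk1, against 1.63%. No gene of the 35 rose in either genotype. Kif20a, a kinesin of the central spindle, had 76.8, 68.6 and 66.6 CPM at E14.5 in KO hearts, against 82.2, 75.4 and 81.3 CPM at E13.5. In WT hearts it had 65.5, 62.6 and 65.2 CPM at E14.5, against 78.5, 75.3 and 80.0 CPM at E13.5. The stages overlapped in KO by 1 heart, E14.5 KO replicate 2, and not in WT. The log2 change was -0.17 ± 0.06 in KO (edgeR adjusted p = 0.148) and -0.27 ± 0.06 in WT (0.0363). Exons of Kif20a share 1271 bases with Cdc23 on the other strand, and the sources used here do not give the strand setting of the counting. The log2 change of Cdc23 in WT was -0.01 ± 0.05 and did not pass (edgeR adjusted p = 0.946). Plk1 shares 156 exon bases with Gm44985 in the same way.

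Ccnf (GRCm38 chromosome 17, 24222198 to 24251484, minus strand) had 38.2, 37.1 and 33.0 CPM at E14.5 in KO hearts, against 42.7, 37.5 and 44.7 CPM at E13.5. In WT hearts it had 35.01, 32.99 and 31.72 CPM at E14.5, against 39.0, 45.2 and 41.1 CPM at E13.5. The log2 change was -0.21 ± 0.09 in KO (edgeR adjusted p = 0.191) and -0.33 ± 0.09 in WT (0.0493). The stages overlapped in KO, by E14.5 replicate 2 above E13.5 replicate 5, and not in WT. Kif2c, a kinesin that depolymerises microtubules at the centromere (GRCm38 chromosome 4, 117159639 to 117182639, minus strand), had 43.1, 38.3 and 38.6 CPM at E14.5 in KO hearts, against 48.1, 40.4 and 47.1 CPM at E13.5. In WT hearts it had 39.0, 37.9 and 40.7 CPM at E14.5, against 43.3, 44.2 and 46.8 CPM at E13.5. It did not pass in KO (-0.18 ± 0.08, edgeR adjusted p = 0.216) or in WT (-0.19 ± 0.08, 0.168). The stages overlapped in KO and not in WT.

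These calls were close to the threshold. With 1 library left out, Plk1 in WT passed in 8 of 12 fits, Kif20a in 4 and Ccnf in 3, and Plk1 in KO passed in 2. The log2 change of Plk1 in WT lay between -0.46 and -0.39 in those fits, with adjusted p between 0.0141 and 0.0886, and in KO between -0.36 and -0.22, with adjusted p between 0.0398 and 0.178. With litter as a block, Plk1 in KO did not pass (-0.28, edgeR adjusted p = 0.0946), nor did Kif20a (0.0802) and Ccnf (0.112) in WT, while Plk1 in WT passed (-0.40, 0.0378). A call kept in that fit is still not controlled for litter, because the E13.5 hearts are all of litter 1. Plk1 in WT did not pass without E13.5 WT replicate 1, 4 or 2 or without E14.5 WT replicate 7.2 (0.0693, 0.0663, 0.0519 and 0.0886). Plk1 in KO passed in the fit without E13.5 KO replicate 5 and in that which left out WT replicate 7.2 of the later stage. Ccnf in WT passed when an E14.5 KO heart was left out, and Kif20a in WT in those fits and without E13.5 KO replicate 3.

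With the genotypes averaged, 4 of the 35 genes (11.4%) fell, against 8.93% of all genes, a share near the background. They were Plk1 (-0.35 ± 0.05, edgeR adjusted p = 0.00149), Kif20a (-0.22 ± 0.05, 0.00605), Ccnf (-0.27 ± 0.06, 0.0103) and Kif2c (-0.18 ± 0.05, 0.0358). Plk1, Kif20a and Ccnf passed in all 12 fits that left out 1 library, and Kif2c in 3, the fits that left out KO replicate 2 or WT replicate 7.2 of the later stage, or KO replicate 5 of the earlier. Cdc20 (-0.18 ± 0.06, 0.0673), Ccnb1 (-0.17 ± 0.07, 0.0949) and Foxm1 (-0.13 ± 0.05, 0.0953) did not pass. The log2 changes of the 35 genes lay between -0.35 and 0.09 with a median of -0.10, and 27 were below 0, against 10211 of the 20691 genes. Median changes by role were -0.11 for cyclins and CDK1 controllers, -0.08 for kinases, -0.13 for checkpoint genes, -0.11 for centromere and passenger genes, -0.11 for kinesins and spindle genes, -0.04 for cytokinesis genes and -0.09 for chromosome genes.

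The number of genes that passed changed most with 1 heart, and it was higher without that heart. Without E14.5 KO replicate 2, 12 of the 35 (34.3%) fell with the genotypes averaged, against 7.36% of all genes in the same fit. That heart was the highest of its group for 33 of the 35 genes, so leaving it out lowers their E14.5 KO means. The other fits that left out 1 library gave 3 to 5. The 12 that fell without E14.5 KO replicate 2 were Ccnb1, Ccnf, Cdk1, Foxm1, Plk1, Ube2c, Cenpa, Cenpe, Kif2c, Kif20a, Kif23 and Tpx2. With litter as a block 2 fell, Plk1 and Kif20a, against 4.42% of all genes.

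By separation of the stages, 2 of the 35 genes (5.71%), Plk1 and Cdc20, had all E14.5 KO hearts below all E13.5 KO hearts, against 12.8% of all genes. In WT it was 11 genes (31.4%), against 15.5% of all genes. These were Ccnf, Foxm1, Plk1, Aurka, Bub3, Cenpa, Cenpe, Kif2c, Kif20a, Kif23 and Tpx2. No gene had the E14.5 hearts above the E13.5 hearts in either genotype. Among genes with a promoter window, 3 of the 22 with CHR letters fell with the genotypes averaged and 0 of the 7 without, and the medians were -0.10 and -0.09. With CCAAT letters 2 of 24 fell and without them 1 of 5, and the medians were -0.10 and -0.02.

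**Figure D5:**
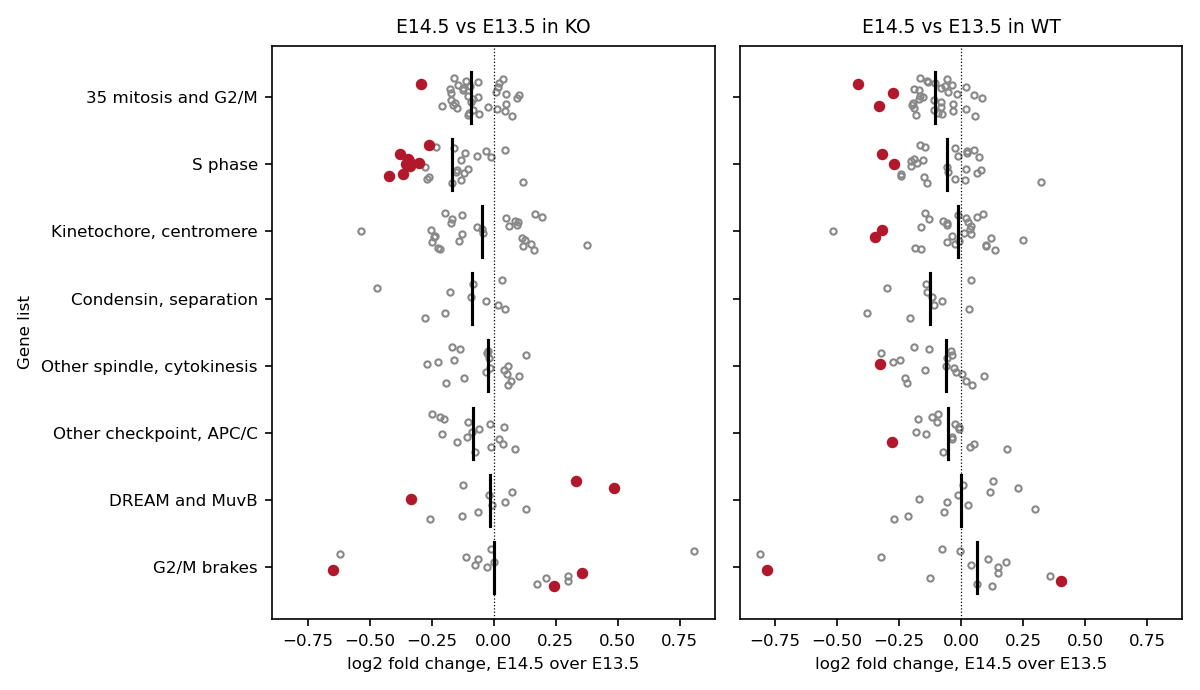
Log2 fold change of E14.5 over E13.5 in KO hearts (left) and WT hearts (right) for the 35 genes and 7 other fixed lists; each point is a gene, filled red where edgeR's adjusted p is under 0.05, and the vertical bar is the list's median. In the row of the 35 genes there is 1 red point in KO and there are 3 in WT, and the S phase row has 9 in KO and 2 in WT.

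Of the other fixed lists, the S phase genes had the most calls in KO. There 9 of the 27 passed, all lower at E14.5, against 1.63% of all genes, with a median of -0.17, among them Chaf1a, a subunit of the histone chaperone of replication, and Mcm2 and Mcm4, of the replicative helicase. In WT 2 of the 27 passed, Pole, the catalytic subunit of DNA polymerase epsilon (-0.32 ± 0.08, edgeR adjusted p = 0.0447), and Mcm3 (-0.27 ± 0.07, 0.0476), with a median of -0.06, against 1.96% of all genes. The 29 kinetochore genes also had 2 calls in WT. The difference between the genotypes passed for 0 of the 27. With the genotypes averaged, 10 of 27 S phase genes fell, 4 of 29 kinetochore genes (among them Incenp, Cenpt and Zwint), 3 of 10 condensin and separation genes (Espl1, Ncaph2 and Ncapd2), 3 of 19 other spindle genes (Kif18b, Kif22 and Kifc1) and 2 of 16 other checkpoint genes (Anapc2 and Fzr1), against 8.93% of all genes. The counts of the kinetochore, spindle and checkpoint lists are not far from that share. No gene of these 5 lists rose. Several of these calls were close to the threshold too. With 1 library left out, Pole in WT passed in 4 of 12 fits and Mcm3 in 3. In KO, Chaf1a passed in 8, Mcm2 in 9 and Mcm4 in 8. With the genotypes averaged, Ncapd2 and Ncaph2 passed in 4 each, Zwint in 6 and Fzr1 in 7. The other kinetochore, condensin, spindle and checkpoint genes named passed in all 12.

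Over all genes, 8.26% rose and 8.93% fell with the genotypes averaged, or about 1 gene each way in lists of 12 or 15, so the small counts of the regulators describe the genes named and not the lists. Of 12 DREAM and MuvB genes, 2 rose with the genotypes averaged, Rbl2, the pocket protein p130 of DREAM (0.36 ± 0.05, edgeR adjusted p = 0.00192), and Tfdp2, a partner of E2F proteins (0.23 ± 0.05, 0.00693). Among them 2 fell, E2f4 (-0.26 ± 0.06, 0.00998) and Mybl2, which encodes B-MYB (-0.25 ± 0.06, 0.0142). Of 15 G2/M brakes, 3 rose, Ccng1, Cdkn1b and Btg1, and 1 fell, Cdkn1c (-0.72 ± 0.10, 0.00172), an inhibitor of cyclin-dependent kinases. Between the stages, the summed erythroid markers were 3910 to 41770 CPM in E14.5 KO hearts and 11440 to 18370 CPM in E14.5 WT hearts, against 3566 to 7371 CPM in E13.5 KO hearts and 6015 to 10810 CPM in E13.5 WT hearts. With erythroid expression as a covariate, Plk1, Kif20a and Ccnf still passed with the genotypes averaged and Kif2c did not.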

How the data were processed

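Bulk RNA of 12 whole hearts was analysed, 3 per group. The authors deposited 1 table of raw counts per gene symbol, with no normalization. Per the submitters' processing notes, STAR 2.5.3a, featureCounts, DESeq2 and DESeq were used with GRCm38; the sources used here do not give the strand setting or annotation release. Rows of 37 mitochondrial genes were 0 throughout. In R 4.3.3, edgeR 4.0.16 (TMM, filterByExpr, robust quasi-likelihood fit of 4 group means, 8 residual degrees of freedom; common BCV, the biological variation, 17.1%) gave two-sided tests, adjusted by Benjamini-Hochberg over 20691 genes (threshold 0.05). SE is the log2 change over the root of F. Separate animals are not stated for each library, so p-values measure the spread between these libraries, part of which may be technical. The mean log2 CPM of Y-linked genes ran from -4.97 to 5.72 in E14.5 KO hearts and from -4.05 to 5.69 in E14.5 WT hearts. It ran from -4.76 to 5.50 in E13.5 KO hearts and from -5.04 to 5.46 in E13.5 WT hearts, so each group mixed libraries with and without Y-linked expression. No pair of libraries within a group was a copy. The test was also run on simulated counts in which each gene varied independently with the same spread and only KO changes were added. That run cannot show how the test behaves with stage changes or with shifts of many genes in a heart.

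Alternatives were RLE size factors, no filter, DESeq2 1.42.0, litter as a block (1 term, for litter 3), Y-linked or erythroid covariates and only the libraries compared. Others left out litter 3, each library, or the pair of KO hearts that stood apart (E13.5 replicate 5 and E14.5 replicate 2). Added after seeing the data was a fit with no robust estimation. The 35 genes, the lists and the rule for named genes (a fixed panel, called genes, the 2 highest and lowest KO changes, the 4 smallest stage p-values, up to 3 called genes per list and direction) were chosen with earlier results of these data known. Genes named outside the rule, where a count was small or a heart stood apart, were chosen after their values were seen.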

Additional observations from a re-analysis of the deposited data

How the results depend on the processing

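No paired analysis was possible by replicate number because the groups compared share no number. In KO against WT, 0 of the 35 genes passed at either stage, averaged or as a difference between stages under every alternative run, DESeq2 and each left-out library included.

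The stage counts of these genes did change. In WT, where 3 passed, it was 1 with litter as a block or an erythroid covariate, 0 with litter 3 left out, and 0 to 3 with 1 library left out. In KO, where 1 passed, it was 0 with litter as a block, a Y-linked or erythroid covariate, only the libraries compared, litter 3 left out or the pair of KO hearts left out, and 0 to 1 with 1 library left out. Averaged, where 4 passed, it was 2 with litter as a block, 13 without that pair of KO hearts and 3 to 12 with 1 library left out. Of the pair, E13.5 KO replicate 5 was the lowest of its group for 33 of these genes. E14.5 KO replicate 2 was the highest of its group for 33. Leaving both out deepens the fall in KO by the choice of hearts, so the count of 13 is no separate evidence of a fall. The changes in the direction of the KO medians stand with those results.

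Counts over all genes moved more. At E14.5 (46 in KO against WT), they were 77 with no filter, 92 with litter as a block, 2 with only the libraries compared, 10 without the pair of KO hearts, 348 with DESeq2 and 10 to 107 with 1 library left out. At E13.5 (22), they were 40 with no filter, 60 with litter as a block, 9 with the Y-linked covariate, 95 with only the libraries compared, 71 with litter 3 left out, 310 with DESeq2 and 2 to 69 with 1 library left out. Averaged (293), they were 180 with the erythroid covariate, 63 without the pair, 926 with DESeq2 and 125 to 483 with 1 library left out; the difference between stages gave 2 with DESeq2. For stage in WT (836) they were 299 with litter as a block, 387 with the erythroid covariate, 95 with litter 3 left out, 474 without the pair, 2140 with DESeq2 and 8 to 1081 with 1 library left out. In KO (774) they were 332 with litter as a block, 217 with the erythroid covariate, 397 with the Y-linked covariate, 289 with only the libraries compared, 130 without the pair, 1822 with DESeq2 1076 without E14.5 WT replicate 7.2 and 66 to 912 with 1 other library left out. Averaged over the genotypes (3557) they were 1684 with litter as a block, 2216 with litter 3 left out, 2294 without the pair 2299 without E14.5 WT replicate 7.2 and 2368 to 3681 with 1 other library left out. The causes were not tested. No called change of a named gene turned its sign in any alternative.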
